A study of Mus musculus with 8 samples.

Results

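The genes described here carry glucose into the cell, break it down to pyruvate and lactate, steer pyruvate towards or away from the mitochondria, and sense oxygen through the hypoxia-inducible factor HIF. They were chosen by name, as 36 symbols, and all 36 are among the 24421 symbols counted in each library. RNA came from naive CD4+ T cells, isolated with a selection kit from the spleens of C57BL/6 mice labelled male and aged 6 to 8 weeks. The libraries titled E1KO are taken as those of Pcbp1fl/flCd4-Cre animals, in which Cre driven by the Cd4 promoter deletes the floxed gene in developing T cells, CD8 cells included. The libraries titled E1WT are taken as those of Pcbp1+/+Cd4-Cre controls, which carry the same Cre by the genotype field and are called wild-type in the protocol. There were 4 libraries of each title, whose animals the labels do not list one by one. The spread that all p-values rest on is thus between libraries and may be technical. The comparison asks how these cells differ by title, where the targeted gene encodes PCBP1, an RNA-binding protein also named hnRNP E1. The level of that protein was not measured here.

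In glycolysis, glucose enters through a transporter, is trapped as glucose phosphate by hexokinase, committed by phosphofructokinase, split by aldolase and oxidised to pyruvate. Pyruvate is then either reduced to lactate and exported or passed to the mitochondrial pyruvate dehydrogenase complex, which the PDK kinases switch off. Resting naive T cells use little glucose and raise uptake and glycolysis when they are activated. HIF1A is made at all times and is destroyed in the presence of oxygen, after the EGLN prolyl hydroxylases mark it for the VHL ubiquitin ligase. When oxygen is low it raises many of the same glycolytic genes, together with PDK1, BNIP3, DDIT4 and EGLN3.

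Libraries held 28264655 to 36738202 gene counts. Title and genotype field contradict each other for all 8 libraries, which are named by title here. Pcbp1 stood at 38.3 to 41.8 CPM (counts scaled by the TMM-adjusted total of gene counts) in E1KO libraries and at 203 to 243 CPM in E1WT libraries, which goes with the titles. Although every animal is labelled male, Xist, the RNA of the inactive X chromosome, stood at 365 to 425 CPM in E1KO libraries and at 0.55 to 2.89 CPM in E1WT libraries. The Y-linked genes Ddx3y, Eif2s3y, Kdm5d and Uty summed to 149 to 165 CPM in E1KO libraries and 306 to 326 CPM in E1WT libraries. The title and this signal cannot be told apart. Of the 36 genes, Pgk1, Pdk3, Pdha1 and Pfkfb1 are X-linked, and 0 of these 4 passed the edgeR test (1, Pgk1, had p under 0.05 before adjustment, and DESeq2 called 0), against 24.9% of the 426 X-linked genes tested. Transcripts of naive CD4 T cells were abundant, with Cd4 at a mean of 850.4 CPM in E1KO libraries and 1023 CPM in E1WT libraries.

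Markers of other cells and of dividing cells also moved with the title. Summed erythroid markers ran from 152 to 177 CPM in E1KO libraries and from 55.5 to 66.1 CPM in E1WT libraries, with 4 of 7 tested markers higher and Hba-a1 and Hbb-bs listed at 0 in every library. Monocyte and macrophage markers summed to 116 to 130 CPM in E1KO libraries and 59.7 to 68.4 CPM in E1WT libraries, with 6 of 11 tested higher and 1 lower. Proliferation genes summed to 1441 to 1515 CPM in E1KO libraries and 1118 to 1199.5 CPM in E1WT libraries (11 of 16 higher), and markers of activated T cells to 486 to 520 CPM and 404 to 443 CPM (3 of 6 higher). Dendritic cell markers summed to 62.3 to 76.8 CPM in E1KO libraries and 50.1 to 63.2 CPM in E1WT libraries (6 of 8 higher), NK cell markers to 137 to 146 CPM and 121 to 130.5 CPM (3 of 6 higher), and plasma cell markers to 739 to 939.6 CPM and 488 to 697 CPM (1 of 4 higher). Most of the plasma cell sum was Jchain, the marker called, at a mean of 803 CPM in E1KO and 555 CPM in E1WT libraries. Sdc1, Mzb1 and Prdm1 were not called. The summed dendritic, CD8 T, B cell and neutrophil markers overlapped between titles. Among the tested markers of the last 3 sets, 1 of 2 CD8 T markers was lower and 2 of 7 B cell markers were higher. Of 5 neutrophil markers 1 was higher and 1 lower. Naive CD4 T markers were lower in sum (1 of 10 higher, 4 lower), at 6008 to 6202 CPM in E1KO libraries and 6869 to 6930 CPM in E1WT libraries. The part of these cells in the differences described below was not tested.

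Per length of transcript, the pathway was led by the same enzymes under both titles. Gapdh, which oxidises glyceraldehyde phosphate, had 407 ± 32.8 CPM per kb of transcript in E1KO libraries and 354 ± 28.0 in E1WT libraries (SD, n = 4 each). Pkm, whose product makes pyruvate, followed with 384 ± 9.93 and 351 ± 6.19 CPM per kb, and Ldha, the lactate dehydrogenase A chain, with 319.97 and 303 CPM per kb. Within each title Gapdh and Pkm did not differ beyond their spread. Aldoa, Gpi1 and Ddit4 came next in both. At the low end lay Hk2, at 1.88 ± 0.37 CPM per kb in E1KO libraries and 1.44 ± 0.33 in E1WT libraries, together with the lactate exporter Slc16a3, Egln3, Aldoc and Pfkfb1. Eno1, the main enolase gene, is listed at 0 in all 8 files, and its near-identical retrogene Eno1b holds 14 to 33 counts in E1KO libraries and 15 to 30 in E1WT libraries. The level of the main enolase can therefore not be read from these counts. Named pseudogenes exist for Aldoa, Gapdh, Pgk1, Pgam1, Ldha, Vhl and Bnip3l, so part of their reads may be among those placed more than once. Exons on the opposite strand overlap 22.3% of the exon length of Bnip3 (an antisense gene), 16.1% of Pdha1 (Map3k15) and 11.5% of Gpi1 (a noncoding gene). They also overlap 5.6% of Hif1a (an antisense gene) and 5.58% of Pfkp (Pitrm1), and less of some others. Reads of such partners cannot be told apart without strand. On the same strand, Gm49759 overlaps 15.3% of Pkm, Gm26513 10.2% of Pfkm and Gm49321 2.51% of Hif1a. None of these same-strand partners is among the counted symbols, and strand would not separate their reads.

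**Figure D1:**
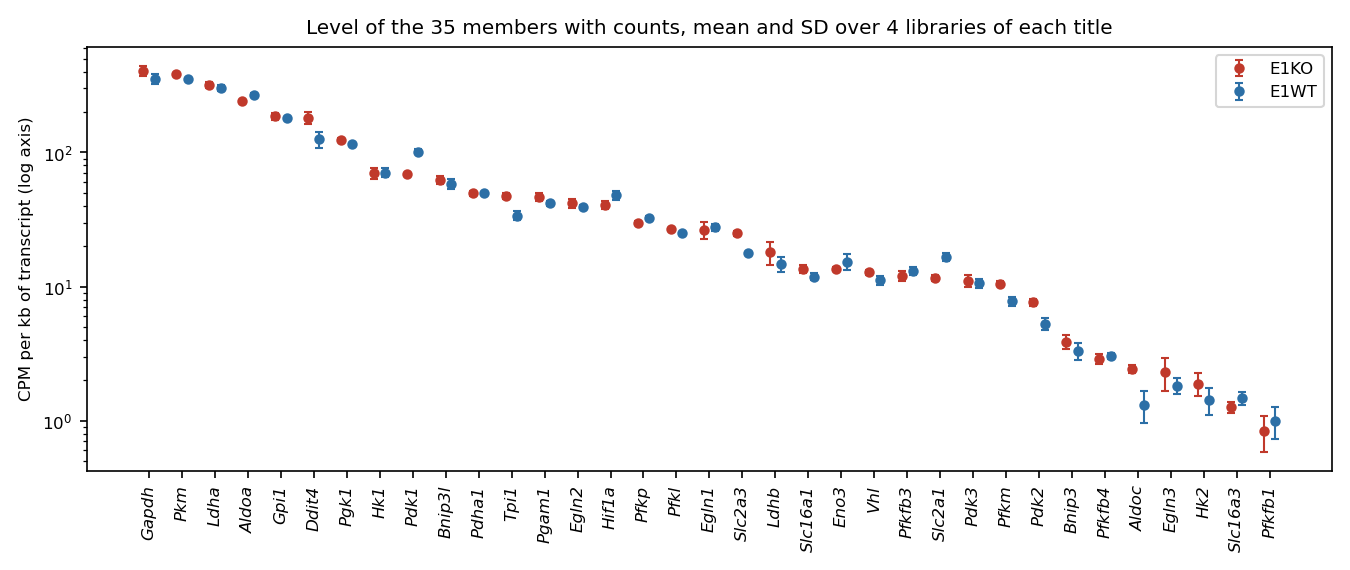
Level of each of the 35 genes with counts, as CPM per kb of principal transcript on a log axis; points are means over 4 libraries and bars are SDs, E1KO in red left of E1WT in blue. The order runs from Gapdh at 407 CPM per kb down to Pfkfb1 at 0.84 CPM per kb in E1KO libraries, and Pdk1, Tpi1, Slc2a1 and Slc2a3 are among the genes whose 2 points stand apart.

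Of the 35 genes tested, 6 rose (Slc2a3, Pfkm, Aldoc, Tpi1, Pdk2 and Ddit4) and 4 fell (Slc2a1, Aldoa, Pdk1 and Hif1a) in E1KO libraries, by edgeR's quasi-likelihood test with Benjamini-Hochberg adjustment over all genes. The other 25 did not pass. On GRCm38, Pfkm lies on chromosome 15 at 98092589 to 98132451 (plus strand), Aldoa on chromosome 7 at 126795234 to 126800751 (minus) and Aldoc on chromosome 11 at 78322968 to 78327781 (plus). Tpi1 lies on chromosome 6 at 124810586 to 124814296 (minus), Pdk1 on chromosome 2 at 71873224 to 71903858 (plus) and Pdk2 on chromosome 11 at 95026258 to 95041354 (minus). Hif1a lies on chromosome 12 at 73901375 to 73947530 (plus) and Ddit4 on chromosome 10 at 59949669 to 59951834 (minus). Across all 13333 genes tested, 23.3% were called, 12.2% as higher and 11.1% as lower, so 10 of 35, or 28.6%, is near the background and is no result about the set. The median log2 fold of the 35 was 0.09, against 0.01 over all tested genes. No called gene of the set changed by as much as 2-fold. For 13 of the 35 genes (37.1%) the libraries of the 2 titles did not overlap in CPM, which held for 26.0% of all tested genes. Beside the 10 called genes these were Pfkl, Pgk1 and Pkm. These are bulk samples, in which fewer cells of a type and less RNA per cell cannot be told apart.

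**Figure D2:**
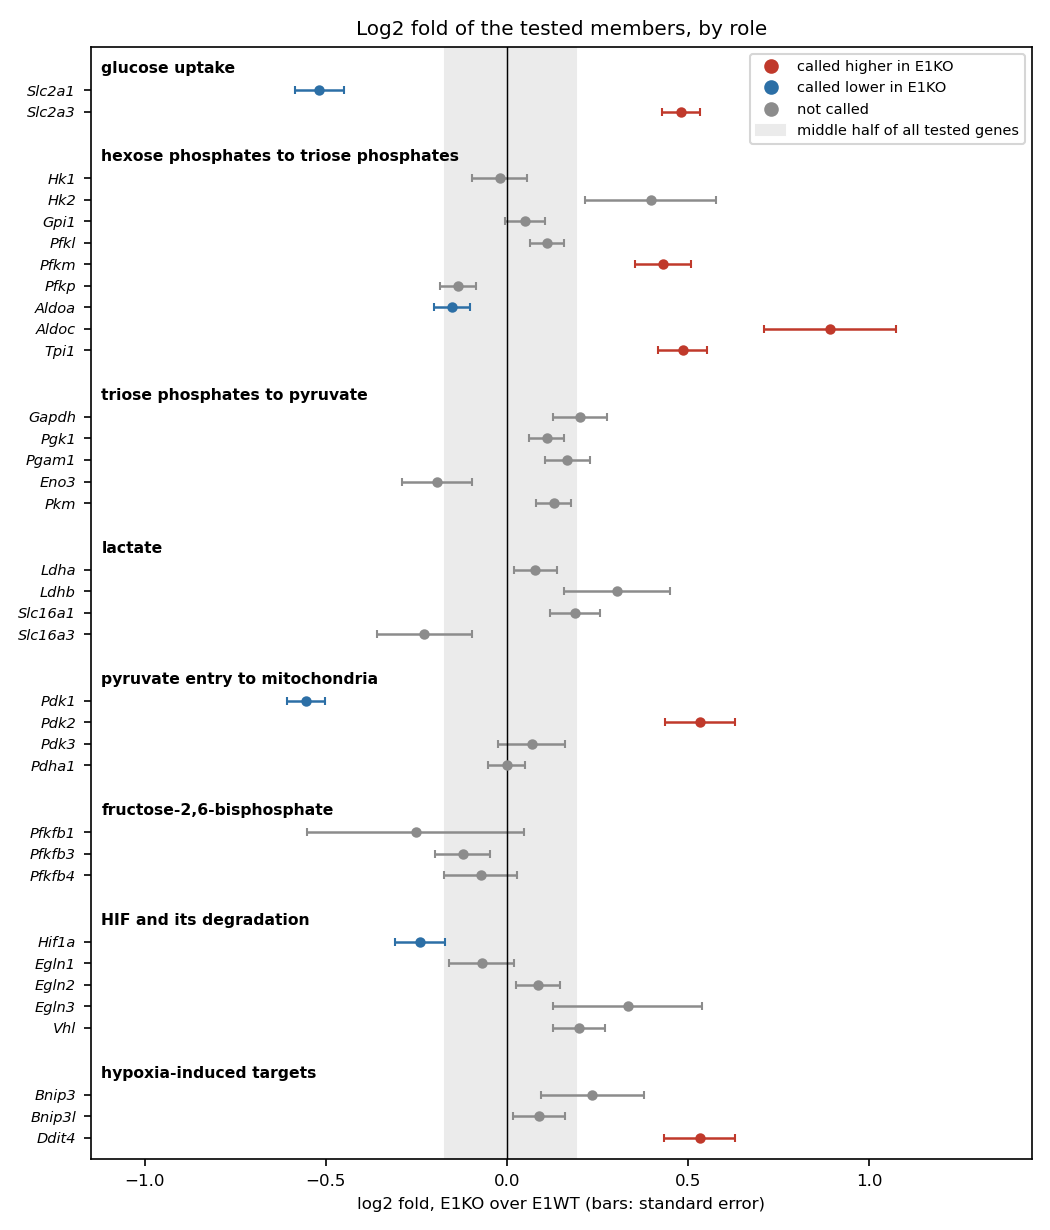
Log2 fold of each tested gene, E1KO over E1WT, with its standard error, ordered by role; red marks genes called higher, blue genes called lower and grey genes not called, and the shaded band is the interquartile range over all tested genes. The values run from -0.55 for Pdk1 to 0.89 for Aldoc, and the transporters and the PDK kinases each hold a gene on either side of 0.

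Both glucose transporters changed, and they moved in opposite directions. Slc2a1 encodes GLUT1, the transporter that T cells raise on activation, and had 39.8, 35.9, 39.4 and 36.3 CPM in E1KO libraries, against 57.1, 57.0, 49.8 and 53.1 CPM in E1WT libraries. Slc2a3 encodes GLUT3, a transporter of high affinity, and had 98.9, 102, 92.2 and 102 CPM in E1KO libraries, against 69.3, 72.0, 69.0 and 72.0 CPM in E1WT libraries. For neither gene did the titles overlap, Slc2a1 being low and Slc2a3 high in every E1KO library. Slc2a1 fell with a log2 fold of -0.52 ± 0.07 (SE, edgeR adjusted p = 0.00028), and Slc2a3 rose with one of 0.48 ± 0.05 (edgeR adjusted p = 8.79e-05). Both together summed to 132 to 139 CPM in E1KO libraries and 119 to 129 CPM in E1WT libraries. Slc2a1 lies on chromosome 4 at 119108711 to 119137983, plus strand, and Slc2a3 on chromosome 6 at 122727809 to 122801640, minus strand (GRCm38).

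HIF binds DNA at ACGTG or GCGTG, and Slc2a1 is a classical HIF target. Start regions are printed only for called genes that hold one of these motifs, so its presence in them was fixed by that choice. Tpi1 and Aldoa, also called, hold 0 of either motif. The window is 300 bases, from 250 before to 50 after the start, chr4:119108495-119108794 on the plus strand (RefSeq, GRCm38.p6), with matches to either motif on either strand in capitals.
Slc2a1: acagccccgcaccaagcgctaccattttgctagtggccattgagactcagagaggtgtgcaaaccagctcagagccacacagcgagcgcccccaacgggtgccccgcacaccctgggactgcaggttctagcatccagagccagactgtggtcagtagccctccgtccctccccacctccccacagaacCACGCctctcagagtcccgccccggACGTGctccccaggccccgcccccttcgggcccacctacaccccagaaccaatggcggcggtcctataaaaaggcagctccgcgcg
It holds 1 ACGTG and 1 GCGTG. One of the motifs, on either strand, was found in 43.8% of 27025 such windows, 1 per gene, and in 27 of the 34 genes of the set that have a window (79.4%). The windows differ in base composition, with a median of 64.5% G and C in the set and 52.7% over all genes. A motif was present for 4 of 5 genes that rose, 3 of 4 that fell and 19 of 24 that were not called.

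Between hexokinase and the triose phosphates, 3 of 9 genes rose and 1 fell, against 12.2% and 11.1% of all tested genes. So few genes give no result about this step as a whole. Hk1, the housekeeping hexokinase, stood at 269 ± 24.1 CPM in E1KO libraries and 273 ± 21.1 CPM in E1WT libraries (log2 fold -0.02 ± 0.08), and did not pass. Gpi1, the next enzyme, had 573.8, 515, 505 and 551 CPM in E1KO libraries, against 529.9, 506, 506 and 530.1 CPM in E1WT libraries, with overlap. Hk2, the inducible hexokinase, had a log2 fold of 0.40 ± 0.18 and missed the threshold (edgeR adjusted p = 0.14). Among the 3 phosphofructokinase genes, which encode the committing enzyme, only Pfkm passed. Pfkm, the muscle-type subunit, had 28.3, 30.2, 31.5 and 30.9 CPM in E1KO libraries, against 21.6, 24.9, 21.1 and 22.0 CPM in E1WT libraries. All E1KO values lay above all E1WT values, and the log2 fold was 0.43 ± 0.08 (edgeR adjusted p = 0.0022). Pfkl and Pfkp, the liver-type and platelet-type subunits, had log2 folds of 0.11 ± 0.05 and -0.13 ± 0.05 (edgeR adjusted p = 0.11 and 0.073), and DESeq2 called Pfkp lower (adjusted p = 0.035).

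The triose-forming steps held Aldoc, the low-expressed aldolase known from brain, whose log2 fold was the largest of the 35. It had 6.43, 6.77, 6.44 and 7.42 CPM in E1KO libraries, against 3.21, 4.01, 4.83 and 2.55 CPM in E1WT libraries. The titles did not overlap for Aldoc, with a log2 fold of 0.89 ± 0.18 (edgeR adjusted p = 0.0048). Tpi1, which interconverts the triose phosphates, had 73.6, 72.4, 81.0 and 77.3 CPM in E1KO libraries, against 55.6, 57.2, 56.2 and 48.2 CPM in E1WT libraries. It rose by 0.49 ± 0.07 on the log2 scale (edgeR adjusted p = 0.00042), again with no overlap. Aldoa, the aldolase of muscle and most other tissues, which made up 99.0% of both aldolases per kb in E1KO libraries and 99.5% in E1WT libraries, had 360.4, 356, 365 and 377 CPM in E1KO libraries, against 414, 404, 416 and 387 CPM in E1WT libraries. Its fall was small, at -0.15 ± 0.05 (edgeR adjusted p = 0.046), and the call ended in 9 of 17 alternative analyses, among them leaving out any 1 of the 4 E1KO libraries or any 1 of E1WT libraries 1, 2 and 3 (edgeR adjusted p = 0.069 to 0.13).

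**Figure D3:**
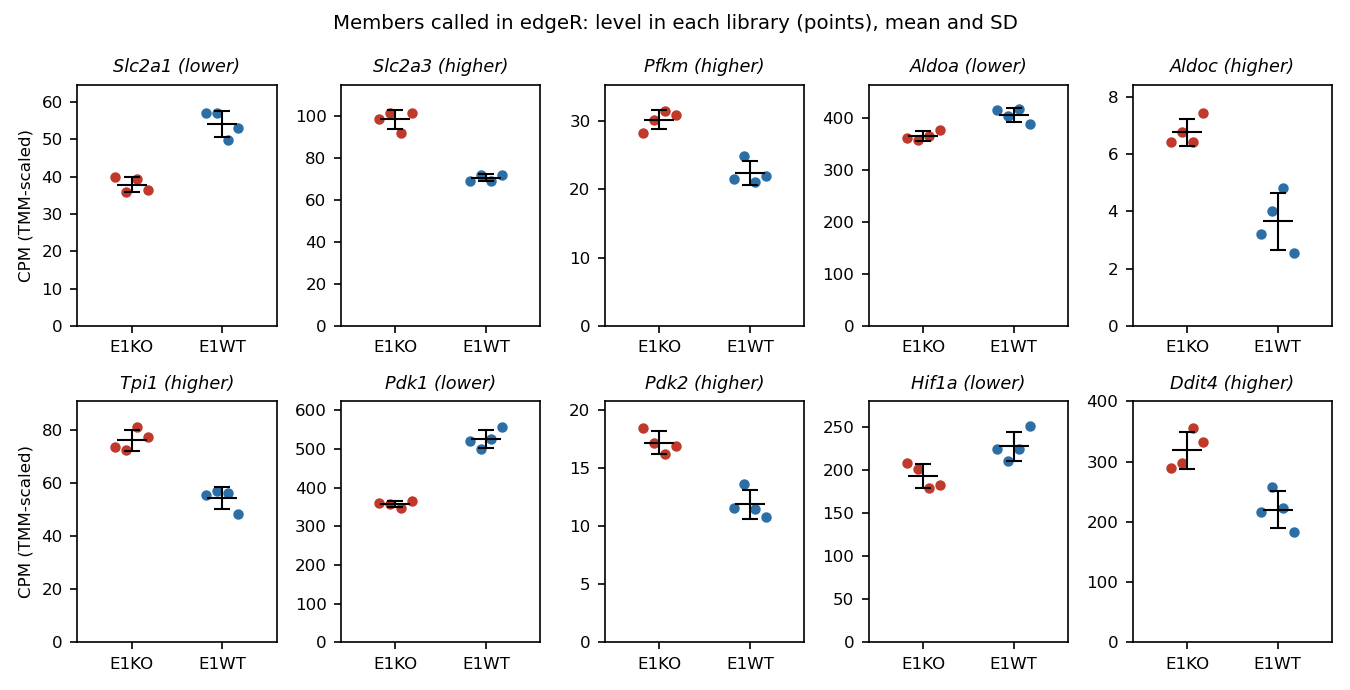
CPM in each library of the 10 genes called by edgeR, with the mean and SD of the 4 libraries of a title; E1KO is left and E1WT right in each panel, and each vertical axis starts at 0. In all 10 panels the 4 points of one title lie above the 4 of the other, most closely for Aldoa and Hif1a.

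From glyceraldehyde phosphate to pyruvate, 0 of 5 tested genes were called in edgeR, and all but Eno3 had a higher mean in E1KO libraries. Without correction 4 of the 5 had p under 0.05, and DESeq2 called 2, Gapdh and Pkm, both as higher. Gapdh had 534, 542, 604 and 629 CPM in E1KO libraries, against 519, 543, 497 and 449 CPM in E1WT libraries. These values overlapped, with a log2 fold of 0.20 ± 0.07 (edgeR adjusted p = 0.073), and Gapdh passed without E1KO library 1 or E1WT library 2 (edgeR adjusted p = 0.042 and 0.037). Pkm averaged 933 ± 24.1 CPM in E1KO libraries and 853 ± 15.1 CPM in E1WT libraries without overlap, at a log2 fold of 0.13 ± 0.05 (edgeR adjusted p = 0.074). Pgk1, Pgam1 and Eno3 had log2 folds of 0.11 ± 0.05, 0.17 ± 0.06 and -0.19 ± 0.10. Pgam1 passed, as higher, without E1KO library 1 (edgeR adjusted p = 0.023), and Eno3, as lower, without E1WT library 4 (0.040). Summed over the role, levels ran from 1782 to 1919 CPM in E1KO libraries and from 1600 to 1707 CPM in E1WT libraries. The 17 glycolytic enzyme and lactate dehydrogenase genes took up 0.403 ± 0.0086% of all gene counts in E1KO libraries and 0.365 ± 0.0098% in E1WT libraries. Eno1, at 0 in every library, is among the 17. These shares have no TMM scaling. The TMM factors were 1.01 to 1.03 in E1KO and 0.965 to 0.990 in E1WT libraries, so the gap is smaller in CPM.

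The 4 lactate genes gave 0 calls in edgeR, 1 of them, Slc16a1, having p under 0.05 before adjustment, and DESeq2 also called 0. Ldha had 540, 542, 574 and 604 CPM in E1KO libraries, against 541, 568, 531 and 500 CPM in E1WT libraries, with partial overlap and a log2 fold of 0.08 ± 0.06. Ldhb, the chain that favours lactate oxidation, had 16.7, 24.4, 26.4 and 26.8 CPM in E1KO libraries, against 20.6, 21.7, 17.2 and 16.8 CPM in E1WT libraries. The E1KO 1 library lay apart from the other E1KO libraries, and without it the log2 fold went to 0.44 (edgeR adjusted p = 0.012), against 0.30 ± 0.15 with all libraries (edgeR adjusted p = 0.16). The monocarboxylate transporters Slc16a1 and Slc16a3 had log2 folds of 0.19 ± 0.07 and -0.23 ± 0.13 (edgeR adjusted p = 0.072 and 0.24). Slc16a1 passed without E1KO library 3 (edgeR adjusted p = 0.033).

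At the entry of pyruvate into the mitochondria, 2 kinases of the same complex moved in opposite directions. Pdk1, the most abundant of them and a classical HIF target, had 359, 358, 348 and 365 CPM in E1KO libraries, against 520.2, 499, 525 and 557 CPM in E1WT libraries. Pdk2 had 18.5, 17.1, 16.2 and 16.9 CPM in E1KO libraries, against 11.6, 13.6, 11.4 and 10.8 CPM in E1WT libraries. Neither gene overlapped between titles. Pdk1 fell with a log2 fold of -0.55 ± 0.05 (edgeR adjusted p = 3.37e-05) and Pdk2 rose with one of 0.53 ± 0.10 (edgeR adjusted p = 0.0022). Pdk3 had a log2 fold of 0.07 ± 0.09. Pdha1, the catalytic subunit that the kinases phosphorylate, had 149, 143, 139 and 134 CPM in E1KO libraries, against 140.4, 137, 140.1 and 146 CPM in E1WT libraries, with full overlap and a log2 fold of -0.00044 ± 0.051. Pdk1 made up most of the counts of these 4 genes, whose sum was 525 to 549 CPM in E1KO libraries and 673 to 737 CPM in E1WT libraries.

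The start regions of both kinases are shown because these genes moved apart and each holds a motif, as the choice of printed regions required. The Pdk1 window is chr2:71872974-71873273 on the plus strand and the Pdk2 window chr11:95041322-95041621 on the minus strand, with capitals and source as for Slc2a1. Each is the first of 2 starts listed for its gene.
Pdk1: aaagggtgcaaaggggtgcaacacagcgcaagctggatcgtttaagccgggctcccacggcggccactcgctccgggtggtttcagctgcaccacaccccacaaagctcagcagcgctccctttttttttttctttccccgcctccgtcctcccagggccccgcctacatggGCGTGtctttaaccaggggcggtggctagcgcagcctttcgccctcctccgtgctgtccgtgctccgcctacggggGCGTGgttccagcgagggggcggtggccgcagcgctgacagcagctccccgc
Pdk2: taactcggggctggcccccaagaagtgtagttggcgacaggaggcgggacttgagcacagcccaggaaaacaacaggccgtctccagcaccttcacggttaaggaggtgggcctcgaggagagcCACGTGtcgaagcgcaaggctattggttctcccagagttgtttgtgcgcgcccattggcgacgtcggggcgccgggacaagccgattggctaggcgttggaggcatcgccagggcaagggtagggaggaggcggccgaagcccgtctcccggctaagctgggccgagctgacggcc
Pdk1 holds 2 GCGTG and 0 ACGTG. Pdk2 holds 2 ACGTG matches, which are the 2 strands of 1 CACGTG, the E-box palindrome, and 0 GCGTG.

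The PFKFB enzymes, which set the level of the fructose bisphosphate that activates phosphofructokinase, gave 0 calls of 3 in edgeR, 0 at p under 0.05 before adjustment and 0 in DESeq2. Pfkfb3, the most abundant, had 51.8, 58.8, 60.1 and 50.7 CPM in E1KO libraries, against 64.1, 62.8, 59.5 and 54.7 CPM in E1WT libraries, with overlap. The log2 folds of Pfkfb1, Pfkfb3 and Pfkfb4 were -0.25 ± 0.30, -0.12 ± 0.08 and -0.07 ± 0.10. Pfkfb1 held 30 to 59 counts in E1KO libraries and 40 to 70 in E1WT libraries, the lowest of the 3.

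Hif1a, the oxygen-regulated HIF subunit, was lower in E1KO libraries, while its regulators did not pass with all libraries. It had 208, 201, 179 and 183 CPM in E1KO libraries, against 224, 210.2, 224 and 251 CPM in E1WT libraries. The titles did not overlap, but E1KO 1 and E1WT 2 lay close, and the log2 fold was -0.24 ± 0.07 (edgeR adjusted p = 0.028). That call ended without E1KO library 3 or 4 or without E1WT library 1, 3 or 4, at edgeR adjusted p values of 0.062 to 0.089. Of the hydroxylases, Egln2, the highest per length, had 83.1, 82.2, 94.9 and 92.3 CPM in E1KO libraries, against 84.4, 85.1, 78.5 and 84.1 CPM in E1WT libraries, which overlapped. The log2 folds of Egln1, Egln2 and Egln3 were -0.07 ± 0.09, 0.09 ± 0.06 and 0.33 ± 0.21. Vhl had one of 0.20 ± 0.07 (edgeR adjusted p = 0.070) and passed, as higher, without E1WT library 2 (edgeR adjusted p = 0.038). Egln3, itself induced by HIF, was low in E1KO library 1 (3.66 CPM, against 6.59 to 7.19 CPM in the other E1KO libraries), and without that library its log2 fold was 0.52 (edgeR adjusted p = 0.024).

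Of the 3 stress and hypoxia targets, Ddit4 rose and the mitophagy receptors did not pass. Ddit4 encodes REDD1, an inhibitor of mTORC1 that hypoxia, energy stress, DNA damage and glucocorticoids induce. It had 289.8, 297, 356 and 332 CPM in E1KO libraries, against 217, 258, 224 and 183 CPM in E1WT libraries. All E1KO values lay above all E1WT values, and the log2 fold was 0.53 ± 0.10 (edgeR adjusted p = 0.0028). Bnip3l had 219.6, 193, 188 and 204 CPM in E1KO libraries, against 179, 174, 195 and 209 CPM in E1WT libraries, which overlapped. Bnip3 and Bnip3l, both HIF targets that mark mitochondria for removal, had log2 folds of 0.24 ± 0.14 and 0.09 ± 0.07 (edgeR adjusted p = 0.26 and 0.40). Bnip3l is also used by maturing red cells, whose markers moved with the title as given above. The Ddit4 window is chr10:59951721-59952020 on the minus strand, with capitals and source as for Slc2a1, and holds 1 ACGTG and 1 GCGTG.
Ddit4: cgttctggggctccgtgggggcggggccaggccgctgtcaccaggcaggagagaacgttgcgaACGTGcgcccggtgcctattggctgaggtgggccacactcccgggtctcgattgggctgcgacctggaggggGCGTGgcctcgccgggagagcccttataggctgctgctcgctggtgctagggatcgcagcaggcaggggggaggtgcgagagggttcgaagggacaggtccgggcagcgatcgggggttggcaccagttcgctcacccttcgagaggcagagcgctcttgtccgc

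The balance between alternative genes for one step was compared as the log2 ratio of their counts within each library, which does not depend on how libraries are scaled. Of 16 ratios, 9 did not overlap between titles, each at the smallest two-sided exact permutation p that 4 against 4 libraries allow, 0.029, and at 0.051 after Benjamini-Hochberg adjustment over the 16. None therefore passes 0.05 after adjustment. The largest differences were those of Pdk1 over Pdk2 (4.38 ± 0.07 in E1KO and 5.47 ± 0.20 in E1WT libraries, SD, n = 4 each, exact p = 0.029) and of Aldoa over Aldoc (5.75 ± 0.075 and 6.83 ± 0.36, n = 4 each, exact p = 0.029). Slc2a1 over Slc2a3 followed, at -1.38 ± 0.13 in E1KO and -0.38 ± 0.09 in E1WT libraries, a difference of -0.999. Per kb of transcript, Slc2a1 made up 31.8 ± 2.01% of both transporters in E1KO libraries and 48.3 ± 1.53% in E1WT libraries. Pdk1 made up 78.7 ± 0.82% of the 3 kinases in E1KO libraries and 86.5 ± 1.11% in E1WT libraries. Pfkm made up 15.7 ± 0.76% of the phosphofructokinases in E1KO libraries and 11.9 ± 1.08% in E1WT libraries, while Pfkp made up 44.1 ± 0.70% and 49.8 ± 0.93%.

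The other separated ratios among called families were Pdk1 over Pdk3 (difference -0.62), Pdk2 over Pdk3 (0.47), Pfkm over Pfkp (0.57) and Pfkl over Pfkm (-0.32). Ratios of genes that were not called singly also stood apart. Slc16a1 over Slc16a3 was 3.45 ± 0.15 in E1KO and 3.04 ± 0.10 in E1WT libraries, and Pfkl over Pfkp was -0.29 ± 0.03 and -0.53 ± 0.03, both without overlap. The size of the Pfkp ratios depended on the processing, and removal of an exon-length trend was among the alternatives. The Pfkl over Pfkp difference was 0.24, but 0.12 at the lowest of all alternatives and 0.23 at the lowest with 1 library left out. For Pfkm over Pfkp the same values were 0.57, 0.38 and 0.53. Hk1 over Hk2 was 4.71 ± 0.17 in E1KO and 5.13 ± 0.25 in E1WT libraries (exact permutation p = 0.057, n = 4 each). Ldha over Ldhb differed by -0.21, with overlap (exact permutation p = 0.23), and the EGLN, PFKFB and BNIP ratios gave exact permutation p values of 0.31 to 0.66.

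**Figure D4:**
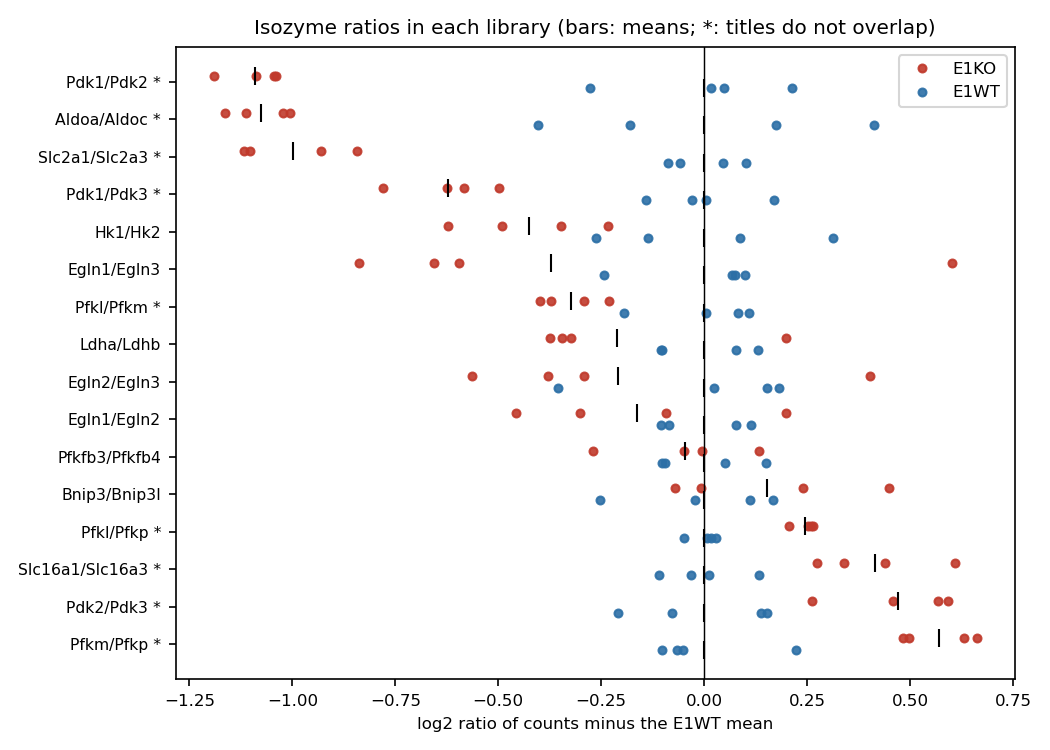
Log2 ratio of counts of 2 genes for one step in each library, minus the E1WT mean of that ratio, E1KO in red above E1WT in blue; black bars are means and asterisks mark ratios whose titles do not overlap. The differences run from -1.09 for Pdk1 over Pdk2 to 0.57 for Pfkm over Pfkp, and single E1KO libraries stand apart for Ldha over Ldhb and Egln1 over Egln3.

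Outside the 36, a list of 85 further genes of glycolysis, pyruvate handling and the HIF pathway was read from the same fit. Of 72 tested, 9 rose and 5 fell, or 19.4%, near the 23.3% of all genes. Glycolysis and pyruvate genes gave 4 higher and 1 lower of 32, and HIF pathway genes and targets 5 higher and 4 lower of 40, with median log2 folds of 0.02 and 0.03. Pklr, the pyruvate kinase of liver and red cells, had 21.0, 17.4, 19.8 and 20.1 CPM in E1KO libraries, against 4.83, 5.17, 6.28 and 4.59 CPM in E1WT libraries, and rose by 1.91 ± 0.12 on the log2 scale (edgeR adjusted p = 1.72e-06). Ndrg1, a stress gene that HIF induces, had 45.4, 41.6, 49.8 and 45.3 CPM in E1KO libraries, against 18.5, 19.5, 20.8 and 17.8 CPM in E1WT libraries (log2 fold 1.249 ± 0.079, edgeR adjusted p = 1.89e-06). Neither gene overlapped between titles. Among the erythroid markers in the same libraries, Klf1 stood at 13.5 CPM in E1KO and 4.41 CPM in E1WT libraries and Ermap at 42.1 and 15.4 CPM, and their part in the Pklr difference was not tested.

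Further HIF targets rose from low levels. Adm, the vasodilator peptide adrenomedullin, averaged 1.40 ± 0.13 CPM in E1KO libraries and 0.22 ± 0.10 CPM in E1WT libraries (41 to 57 counts, against 4 to 9), and P4ha2, a collagen prolyl hydroxylase, 3.74 ± 0.35 and 1.81 ± 0.17 CPM. Their log2 folds were 2.67 ± 0.37 and 1.04 ± 0.17 (edgeR adjusted p = 0.00041 and 0.0012). Tfrc, the transferrin receptor, which dividing cells and red cell precursors carry at high levels, averaged 57.9 ± 1.74 CPM in E1KO libraries and 40.6 ± 1.73 CPM in E1WT libraries. It rose by 0.51 ± 0.06 on the log2 scale (edgeR adjusted p = 0.00011), and Minpp1, an inositol polyphosphate phosphatase, by 0.28 ± 0.05. On the lower side were Epas1, which encodes the HIF subunit HIF2A (-0.31 ± 0.08), and the HIF coactivator Crebbp (-0.43 ± 0.11). The histone demethylase Kdm4b, in the same list of HIF pathway genes and targets as Adm, P4ha2 and Tfrc, also fell (-0.47 ± 0.07), without overlap. So did Ldhd, the D-lactate dehydrogenase (-0.97 ± 0.26). Ldhd lost its call without E1KO library 2 or 3 or E1WT library 1 or 3 (edgeR adjusted p = 0.053 to 0.062), Epas1 without E1WT library 1 (0.0598) and Crebbp without E1KO library 4 (0.0504).

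**Figure D5:**
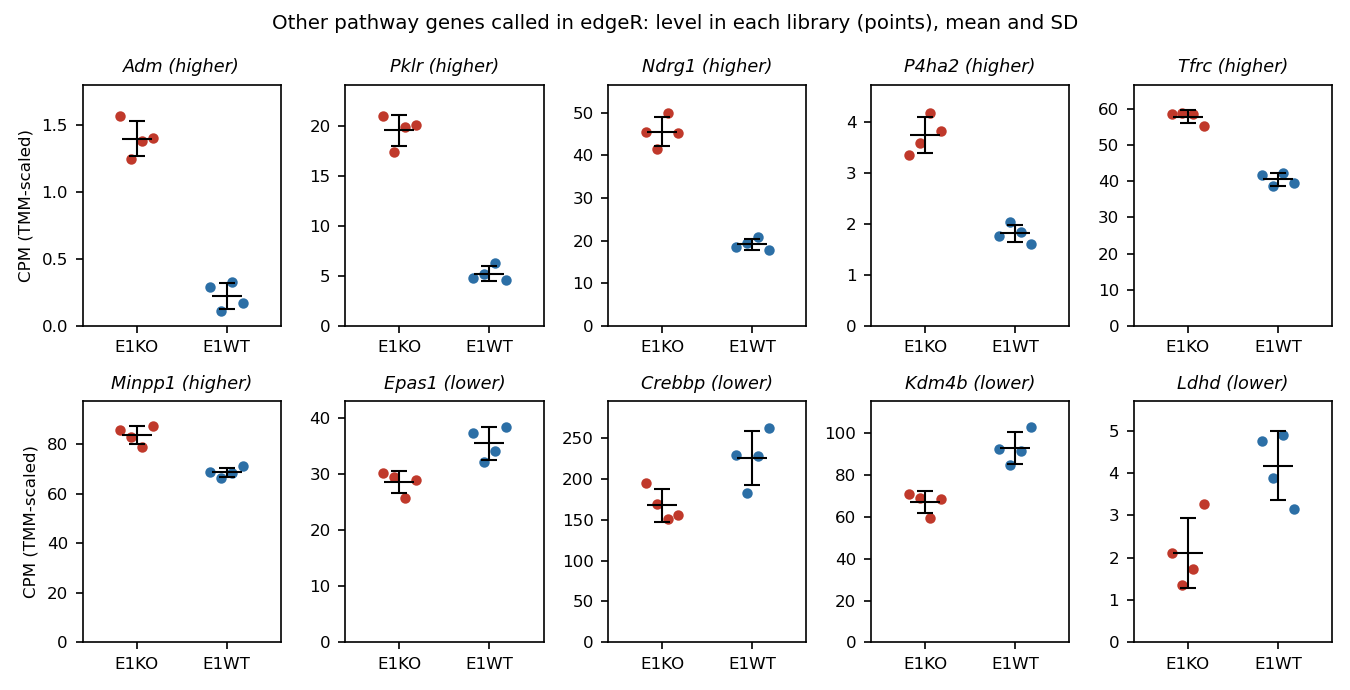
CPM in each library of the 10 further pathway genes with the smallest p among those called, with the mean and SD of 4 libraries per title; E1KO is left and E1WT right, and each axis starts at 0. Pklr and Ndrg1 stand at 17.4 to 21.0 and 41.6 to 49.8 CPM in E1KO libraries, above 4.59 to 6.28 and 17.8 to 20.8 CPM in E1WT libraries, while Crebbp and Ldhd overlap between titles.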

How the data were processed

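RNA sequencing libraries (50 ng of total RNA, read as paired ends of 75 bases, per the labels' protocols) were deposited by the authors as raw read counts per gene symbol. Per the submitters' processing notes, TopHat2 2.1.0, HTSeq 0.9.1 and the build mm10 were used. Which annotation, strand setting and filters went with them is not given in the sources used here. Reads given to no gene, in 5 closing rows, entered neither library sizes nor tests. They made up 28.2% to 30.8% of a file in E1KO libraries and 33.3% to 37.0% in E1WT libraries. Reads with several placements, which are among them, made up 11.09% to 11.96% in E1KO and 12.55% to 13.21% in E1WT libraries. Neither share overlapped between titles, and what this adds to the differences described above was not tested.

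The title set the group, 4 against 4. The test was that of edgeR 4.0.16, run in R 4.3.3 (TMM, default expression filter with a count minimum of 10 and a total minimum of 15, quasi-likelihood test, Benjamini-Hochberg adjustment over all 13333 genes at 0.05). CPM values were computed from the counts with TMM-adjusted totals of gene counts. Per-kb levels use the longest APPRIS principal transcript of GENCODE M21 on GRCm38, the assembly of mm10, which also gave positions. Isozyme ratios used a pseudocount of 0.5 and two-sided exact permutation tests. Libraries of one title differed beyond sampling noise (chi-square per degree of freedom 4.10 to 60.1), and each was counted as 1 replicate. That excess may be technical and does not show that the libraries come from separate animals. The edgeR script was tested on simulated data. DESeq2 1.42.0, limma-voom (limma 3.58.1), other filters and scaling, a replicate block, autosomal genes, removal of an exon-length trend and left-out libraries were alternatives.

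The genes, lists and tests were chosen with earlier results of these data known. Start regions are RefSeq's, matched by symbol for 34 of the 36 genes. Values in every library are given for each called gene, for the uncalled gene with the highest level per kb in each role, and for some others chosen after their values were seen. Further pathway genes are named where called, up to 10 by smallest p, and 3 list symbols were found under an older symbol.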

Additional observations from a re-analysis of the deposited data

Results flagged for a closer look

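A library far from the other 3 of its title was found in 8 of 122 groups of 4 examined (35 genes, 10 further pathway genes and 16 ratios under each title), where chance gives about 5% of groups. Pfkp in E1WT 2 stood at 128.8 CPM, against 136.1 to 137.4 CPM in the other E1WT libraries. Tpi1 in E1WT 4 stood at 48.21 CPM, against 55.6 to 57.2 CPM, and Egln2 in E1WT 3 at 78.45 CPM, against 84.1 to 85.1 CPM. Tfrc in E1KO 4 stood at 55.32 CPM, against 58.6 to 59.0 CPM in the other E1KO libraries. The log2 ratio of Ldha over Ldhb in E1KO 1 was 5.016, against 4.44 to 4.49, and that of Egln1 over Egln3 in E1KO 1 was 4.963, against 3.52 to 3.77. The log2 ratio of Egln1 over Egln3 in E1WT 3 was 4.117, against 4.43 to 4.46, and that of Pfkm over Pfkp in E1WT 2 was -2.368, against -2.69 to -2.64.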

How the results depend on the processing

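Of the 10 called genes, 8 kept direction and call in all 17 alternatives (Slc2a1, Slc2a3, Pfkm, Aldoc, Tpi1, Pdk1, Pdk2 and Ddit4), and Aldoa and Hif1a lost the call in 9 and 6 of them. Leaving out 1 library at a time gave 6 to 10 genes of the set higher and 2 to 4 lower, and 2 to 6 of the further pathway genes lower. Without E1KO 1, Gapdh, Pgam1, Ldhb and Egln3 were also called higher, Slc16a1 was added without E1KO 3, Gapdh and Vhl without E1WT 2, and Eno3 (lower) without E1WT 4. DESeq2 added Pfkp, Gapdh and Pkm, and removal of the exon-length trend added Pfkl, Gapdh and Eno3. Over all genes the number called ran from 2156 to 3724, against 3108. With the replicate number as a block, 2 genes of the set were lower and 6 higher, since Aldoa and Hif1a (edgeR adjusted p = 0.15 and 0.079) lost the call. Same-numbered libraries did not deviate together (correlations of -0.10 to 0.014), while differently numbered ones gave correlations of -0.32 to 0.26. With 4 libraries per title these values cannot settle whether the numbers pair the libraries.

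The sign turned for 4 uncalled results, Hk1, Pdha1, Pfkp and the Pfkfb3 over Pfkfb4 ratio. With the exon-length trend removed the log2 fold of Hk1 was 0.029 and that of Pfkp 0.0052, against -0.13 ± 0.05 without that step. Leaving out 1 library gave -0.079 to 0.025 for Hk1 (0.025 without E1KO 3, 0.024 without E1WT 4) and -0.027 to 0.025 for Pdha1. Pdha1 was at 0.0016 with the CPM filter, and at 0.0073, 0.025 and 0.019 without E1KO 3, E1KO 4 and E1WT 4. The Pfkfb3 over Pfkfb4 difference was 0.010 with the trend removed and -0.11 to 0.027 with 1 library left out, at 0.027 without E1KO 4 and 0.0023 without E1WT 2. The cause was not tested. Pgk1, Pdk3, Pdha1 and Pfkfb1 have no value among autosomal genes. A ratio without overlap stays so by construction when a library is left out. Counts were low for Pfkfb1, at 30 to 59 in E1KO libraries and 40 to 70 in E1WT libraries, and for Adm, at 4 to 9 in E1WT libraries; what depth adds to their error was not tested.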
